A study of Mus musculus with 4 samples.

Results

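Semaphorins, plexins and neuropilins were described in RNA-seq libraries of micro-dissected mouse forebrain at E10.5, in days of embryonic development. The members were the rows of the deposited count table named as a Sema3 to Sema7, Plxna to Plxnd, Nrp1 or Nrp2 gene, which gave 31 of 24982 genes: 20 semaphorins, 9 plexins and 2 neuropilins. The 2 conditional knockout (cKO) libraries came from forebrain of genotype Sox1 cre+/-; Chd7 f/f, with both alleles of the chromatin remodeller gene Chd7 floxed and 1 Cre allele named for Sox1, a gene of the early neural tube. The 2 control libraries were labelled Chd7 +/f: 1 Chd7 allele was floxed, and no Cre was named. The Cre allele and Chd7 loss therefore cannot be told apart as sources of a difference. The series asked how CHD7 affects neurogenic gene expression. Whether each library held 1 embryo or a pool is not labelled, and the p-values rest on a spread between libraries that may be technical.

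Semaphorins are guidance ligands that share an extracellular sema domain. Class 3 semaphorins are secreted and most act through a complex of a neuropilin, which binds the ligand, and a class A plexin, which carries the signal. Classes 4 to 7 are held at the membrane and bind plexins directly. Plexins carry a GTPase-activating domain inside the cell, and their activation reshapes the cytoskeleton of axons, migrating neurons and vessels. In the embryonic forebrain the family is best known for steering axons and migrating interneurons and for patterning blood vessels.

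Total counts were 16581252 to 17096522 per library, and the 31 genes took 0.165% to 0.176% of them. Chd7 was at 136 and 132 CPM (counts scaled to library size) in cKO replicates 1 and 2, against 339 and 345 CPM in control replicates 1 and 2; cKO over control, this was −1.35 on the log2 scale (SE 0.05, edgeR adjusted p = 8.7e-05). The tissue label was checked with Six3 and Lhx2, transcription factor genes of the early forebrain. Six3 was at 53.8 and 47.4 CPM in cKO replicates 1 and 2, against 31.4 and 40.7 CPM in control replicates 1 and 2, with no call. Lhx2 was at 157 and 125 CPM in cKO replicates 1 and 2, against 298 and 216 CPM in control replicates 1 and 2 (log2 fold change −0.87, SE 0.15, edgeR adjusted p = 0.0295). Both were detected in all 4 libraries.

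Levels of different genes were compared per length, as TPM (counts scaled to union exon length and library size). The 3 most abundant members were plexins. Plxnb2, a class B plexin known from mouse mutants for its role in neural tube closure, was the highest of the 31, at 186 ± 5.6 TPM in cKO and 179 ± 6.8 TPM in control forebrain (SD, n = 2 each). Plxna1, a signalling partner of neuropilins, followed at 106 ± 1.1 TPM in cKO and 110 ± 3.7 TPM in control forebrain. Plxnb1, the receptor of the class 4 semaphorin Sema4d, came next at 91.9 ± 1.6 TPM in cKO and 101 ± 1.4 TPM in control forebrain. With union exon lengths the per-library ranges of these 3 genes did not overlap, and together they made up 76.3% of the summed plexin TPM. The most abundant ligand, Sema4c, which binds Plxnb2, was at 59.6 ± 0.030 TPM in cKO and 68.3 ± 0.46 TPM in control forebrain. Below it, the ranges of Sema4c and Plxnd1, of Plxnd1 and Sema5b, and of Sema5b and Sema3f overlapped, as did those of Sema3f and Plxna3. At the low end Sema3d and Sema3e averaged 1.01 and 0.979 TPM over the 4 libraries. Plxnb3 had 1 and 0 counts in cKO replicates 1 and 2, against 0 and 3 counts in control replicates 1 and 2, and was the only member not to pass the count filter. With the longest transcript in place of the union of exons, the mean level of Nrp1 over the 4 libraries moved by the largest ratio, and was 19.9 TPM against 10.1 TPM. On that length Plxna1 and Plxnb1 were nearly equal, with means of 79.7 and 78.7 TPM, so the gap between them depends on the length used. Sema4c and Sema5b were also closer, with means of 55.5 and 51.9 TPM, against 63.9 and 46.3 TPM per union exon length.

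**Figure D1:**
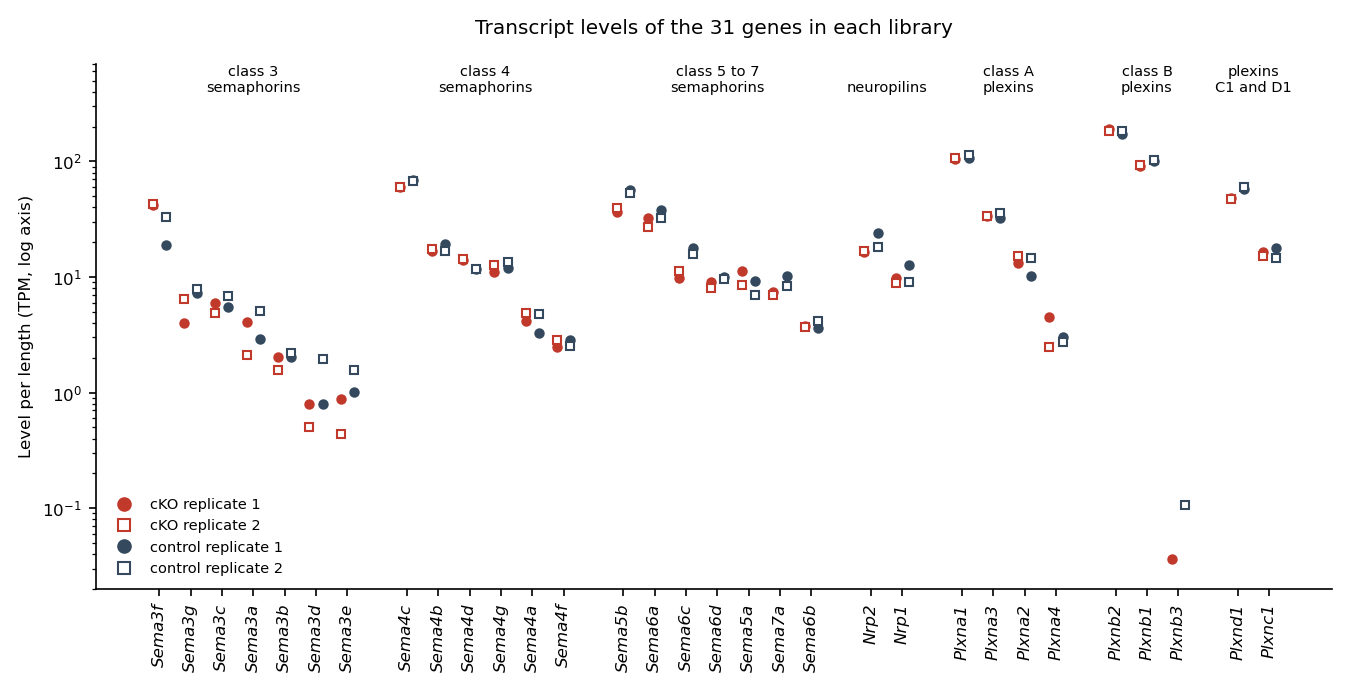
Level per length (TPM, log axis) of the 31 genes in the 2 cKO (red) and 2 control (dark blue) libraries, by role; a value of 0 is not drawn (Plxnb3, 2 libraries). Plxnb2, Plxna1 and Plxnb1 stand above all ligands, and Sema3f and Nrp2 differ between the 2 control libraries.

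In the cKO forebrain 3 members were lower, the membrane semaphorin genes Sema5b and Sema6c and the plexin gene Plxnd1. Sema5b was at 70.0% of its control level, Sema6c at 63.4% and Plxnd1 at 82.3%. None was higher. These 3 of 30 tested members (10%) compare with 3.7% called in either direction and 2.13% called lower among 14235 genes tested (edgeR quasi-likelihood test, adjusted p under 0.05), while 1.57% of all genes were called higher. The members were chosen with earlier results of these data known, so these shares are descriptive only. The authors' deposited table likewise gave an adjusted p under 0.05 to 3 of the 30 members, against 4.48% of its genes. With control replicate 2 left out, 5 members were called, Nrp2 lower and Sema3f and Plxna2 higher beside Sema5b and Sema6c; with any other library left out, Sema5b was the 1 member called. The median log2 fold change was −0.13 over the members tested and −0.00028 over all genes tested. Values were negative for 21 of 30 members (70%), against 50.1% of all genes. For 13 members (43.3%) the 2 groups did not overlap, 3 with cKO above and 10 with cKO below control; the share over all genes was 48.3%, with 24.3% above and 24% below. In bulk tissue, fewer cells of a type and less RNA per cell cannot be told apart.

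**Figure D2:**
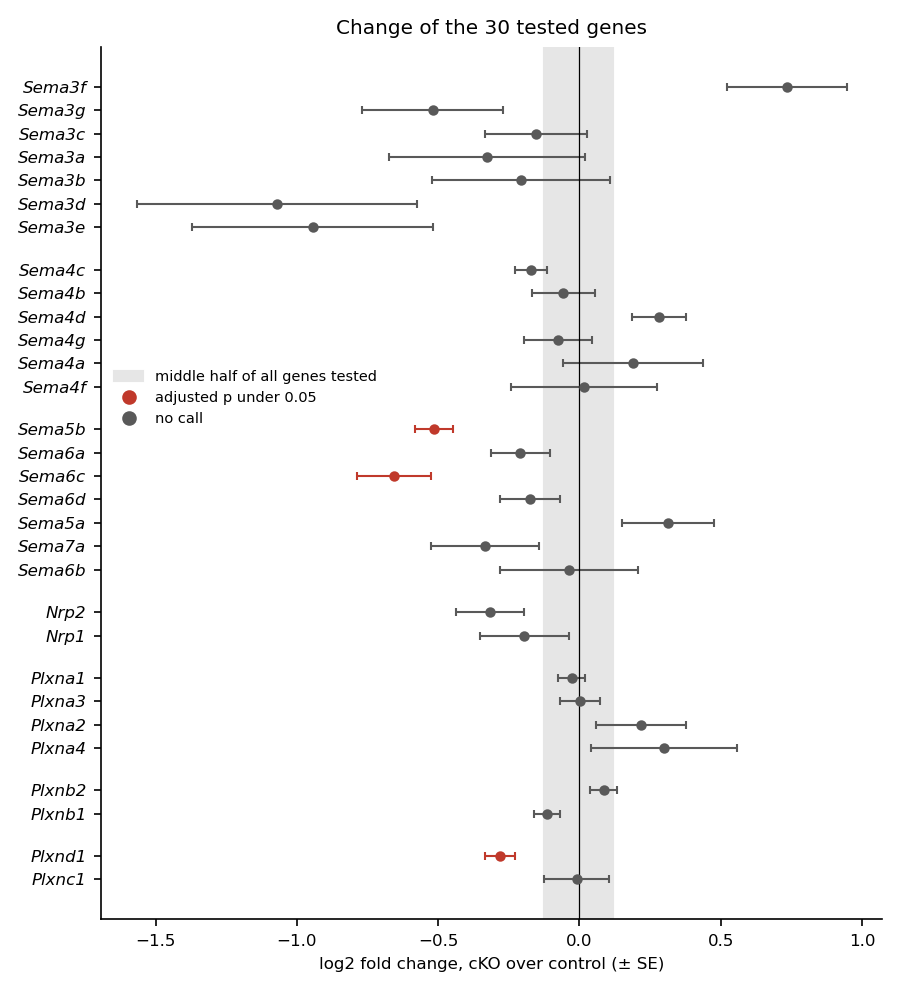
log2 fold change (cKO over control, ± SE) of the 30 tested genes by role, with the interquartile range of all genes tested in grey. Sema5b, Sema6c and Plxnd1, in red, passed the adjusted threshold; Sema3f has the largest positive value, 0.73, and Sema3d the largest negative one, −1.07.

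Among the class 3 ligands, Sema3f was the most abundant and the only one with a positive difference. It binds Nrp2 and repels axons and migrating cells. Sema3f was at 55.4 and 58.4 CPM in cKO replicates 1 and 2, against 25.01 and 43.3 CPM in control replicates 1 and 2. Both cKO libraries were above both control libraries, but the control libraries were far apart. The log2 fold change was 0.73 (SE 0.21, edgeR adjusted p = 0.123), with no call. It was 1.19 when control replicate 2 was left out (adjusted p = 0.000324) and 0.39 when control replicate 1 was (adjusted p = 0.0832). Sema3f made up 70.1% and 73.1% of the summed class 3 TPM in cKO replicates 1 and 2, against 49.2% and 56.4% in control replicates 1 and 2. The 7 surface ectoderm markers were also lowest in control replicate 1: their summed level was 63.9 and 48.4 CPM in cKO replicates 1 and 2, against 13.98 and 55.3 CPM in control replicates 1 and 2, with 0 of 6 tested genes called. The median log2 fold change of the 6 tested genes was 0.47. Epcam was at 20.6 and 17.6 CPM in cKO replicates 1 and 2, against 6.54 and 11.2 CPM in control replicates 1 and 2. It had no call (log2 fold change 1.11, SE 0.24, edgeR adjusted p = 0.0522). Its groups did not overlap, while those of the other ectoderm markers did. Trp63 had 0 counts in control replicate 1, and Krt5 had 0 counts in cKO replicate 2 and control replicate 1. The part of the ectoderm markers in the Sema3f values was not tested.

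The other 6 class 3 genes had negative values and no call, with log2 fold changes of −0.15 (Sema3c) to −1.07 (Sema3d) and adjusted p of 0.313 to 0.801. Sema3a, Sema3c, Sema3d and Sema3e lie on chromosome 5 of GRCm38, between positions 12383385 and 17730268. Each was highest in control replicate 2 and lowest in cKO replicate 2. Sema3a, the classic repellent ligand of Nrp1, had 14.6 and 7.57 CPM in cKO replicates 1 and 2, against 10.1 and 17.7 CPM in control replicates 1 and 2. The groups overlapped, and the log2 fold change of −0.33 (SE 0.35) became 0.13 without control replicate 2 and 0.073 without cKO replicate 2. Sema3e, which binds Plxnd1 without a neuropilin, had 35 and 18 counts in cKO replicates 1 and 2, against 40 and 63 counts in control replicates 1 and 2, so its log2 fold change, −0.94 (SE 0.43, edgeR adjusted p = 0.313), rests on few reads. Sema3d had 29 and 19 counts in cKO replicates 1 and 2, against 29 and 73 counts in control replicates 1 and 2, and control replicate 2 stood apart. Without control replicate 2 the log2 fold change of Sema3d was −0.28, against −1.07 with all libraries.

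The library order of Sema3a, Sema3b, Sema3c and Sema3d (control replicate 2, cKO replicate 1, control replicate 1, cKO replicate 2, from high to low) was that of the 16 head mesenchyme and neural crest markers. The summed level of those markers was 1360 and 910 CPM in cKO replicates 1 and 2, against 1198 and 1448 CPM in control replicates 1 and 2, with 0 of 16 called and none at 0. That library order held for 4 of 30 members (13.3%) and for 3.58% of all genes tested. For Sema3b and Sema3d the middle of this order is a tie in raw counts: cKO replicate 1 and control replicate 1 each had 41 counts of Sema3b and 29 counts of Sema3d. The order was noticed after the values were seen, and the part of these markers was not tested. Sema3b, a low gene separated from Sema3f by 72270 bases on chromosome 9, was at 2.21 ± 0.37 CPM in cKO and 2.55 ± 0.13 CPM in control forebrain (SD, n = 2 each).

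Class 4 semaphorins had no call among 6 tested genes, and their median log2 fold change was −0.020. Sema4c was at 70.2 and 71.3 CPM in cKO replicates 1 and 2, against 80.0 and 79.3 CPM in control replicates 1 and 2. The replicates lay close together and the groups did not overlap, yet the log2 fold change of −0.17 (SE 0.06) had an edgeR adjusted p of 0.176. A stretch of 334 of its 4593 exon bases overlaps an opposite-strand transcript, D430040D24Rik, from which reads could not be separated. Sema4d, the Plxnb1 ligand, was at 27.4 and 28.5 CPM in cKO replicates 1 and 2, against 23.0 and 23.0 CPM in control replicates 1 and 2. Its log2 fold change was 0.28 (SE 0.10, edgeR adjusted p = 0.19), and it stayed between 0.26 and 0.31 under all alternatives run. Sema4a, Sema4b, Sema4f and Sema4g had log2 fold changes of −0.08 to 0.19, and for each the groups overlapped.

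Sema5b (chromosome 16, 35541145 to 35664732 of GRCm38), a transmembrane semaphorin with thrombospondin repeats that signals through Plxna1 and Plxna3 in the mouse retina, gave the call with the smallest p of the family. It was at 66.1 and 72.2 CPM in cKO replicates 1 and 2, against 102 and 95.7 CPM in control replicates 1 and 2. The groups were well apart relative to the gap between replicates. The log2 fold change was −0.51 (SE 0.07, edgeR adjusted p = 0.00958), and the call was made under all 11 alternatives (adjusted p 3.98e-05 to 0.0387). Its relative Sema5a was at 54.1 and 41.2 CPM in cKO replicates 1 and 2, against 43.7 and 33.0 CPM in control replicates 1 and 2. The groups overlapped and no call was made (log2 fold change 0.31, SE 0.16, edgeR adjusted p = 0.377); the difference between the 2 relatives was not tested.

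Sema6c (chromosome 3, 95160457 to 95174024), a class 6 transmembrane semaphorin, was at 14.8 and 17.5 CPM in cKO replicates 1 and 2, against 26.9 and 24.0 CPM in control replicates 1 and 2. Its log2 fold change was −0.66 (SE 0.13, edgeR adjusted p = 0.0416). The direction held under all 11 alternatives, but adjusted p exceeded 0.05 when any of 3 libraries was left out (0.137 without cKO replicate 1, 0.0709 without cKO replicate 2, 0.157 without control replicate 1) and with the replicate number as a block (0.0859). Class 6 also holds Sema6a, a ligand of Plxna2 and Plxna4, at 67.8 ± 7.6 CPM in cKO and 78.4 ± 9.4 CPM in control forebrain (SD, n = 2 each), with no call (log2 fold change −0.21, SE 0.10, edgeR adjusted p = 0.357). Sema6d had a value of −0.17 (SE 0.11) and Sema6b of −0.04 (SE 0.25), neither called. Sema7a, a lipid-anchored ligand of Plxnc1 and of beta-1 integrin, was at 6.27 and 6.03 CPM in cKO replicates 1 and 2, against 8.46 and 7.06 CPM in control replicates 1 and 2, with no call (log2 fold change −0.33, SE 0.19, edgeR adjusted p = 0.428).

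The upstream sequences of Sema6c and Sema6b are shown because they belong to a called and an uncalled gene of the same class, and because neither window touches an annotated gene. Each is the 250 bases before the first-listed RefSeq start (GRCm38.p6), 5′ to 3′ on the strand of the gene, with CpG dinucleotides in capitals. They are chr3:95160170-95160419, plus strand, and chr17:56140344-56140593, minus strand.
Sema6c: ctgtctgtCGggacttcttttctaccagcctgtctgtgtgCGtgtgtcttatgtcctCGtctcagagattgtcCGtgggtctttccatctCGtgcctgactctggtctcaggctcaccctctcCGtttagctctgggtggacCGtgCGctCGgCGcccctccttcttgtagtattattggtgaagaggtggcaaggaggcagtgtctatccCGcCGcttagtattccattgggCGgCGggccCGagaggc
Sema6b: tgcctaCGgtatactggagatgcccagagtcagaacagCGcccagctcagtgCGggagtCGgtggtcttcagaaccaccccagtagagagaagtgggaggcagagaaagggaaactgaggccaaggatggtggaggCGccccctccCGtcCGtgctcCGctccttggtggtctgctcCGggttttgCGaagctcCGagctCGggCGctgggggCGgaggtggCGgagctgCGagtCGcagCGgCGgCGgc
The Sema6c window holds 15 CpG and the Sema6b window 20, against a median of 6 over 32841 windows of that length. The matching windows of Sema5b and Plxnd1 hold 19 and 16. An observed-over-expected CpG ratio of at least 0.6 was met by these 4 windows and by 34% of all. The E-box letters CANNTG, which read the same on both strands, occur in none of the 4 and in 66.2% of all windows. They are also absent from the first-listed windows of Nrp1, Nrp2, Plxna2, Plxna3, Plxnb1, Plxnb2, Sema4a, Sema4b, Sema4d and Sema5a, none of them called. The first-listed windows of the remaining members hold them, so their absence does not set the called genes apart. The window of a second listed start of Sema6c, chr3:95164089-95164338, holds 2 CANNTG and 0 CpG, and that of Sema6b, chr17:56133853-56134102, holds 0 CANNTG and 5 CpG. RefSeq windows were found for 26 of the 31 genes.

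Both neuropilins, co-receptors of class 3 semaphorins and of VEGF, had lower means in the cKO with no call. Nrp2 was at 49.96 and 52.2 CPM in cKO replicates 1 and 2, against 72.1 and 55.0 CPM in control replicates 1 and 2. The groups did not overlap, but control replicate 2 lay near the cKO libraries. The log2 fold change was −0.32 (SE 0.12, edgeR adjusted p = 0.239). Leaving out control replicate 2 gave −0.50 (adjusted p = 0.00935), and leaving out control replicate 1 gave −0.11 (adjusted p = 0.682). Nrp1 was at 24.3 and 22.7 CPM in cKO replicates 1 and 2, against 31.3 and 22.6 CPM in control replicates 1 and 2, and the groups overlapped (log2 fold change −0.20, SE 0.16, edgeR adjusted p = 0.593). Per union exon length, the ratio of Nrp2 to Nrp1 was 1.7 and 1.9 in cKO replicates 1 and 2, against 1.9 and 2.01 in control replicates 1 and 2. The ratio depends on the length used: with the longest transcript, Nrp2 and Nrp1 averaged 24.5 and 19.9 TPM over the 4 libraries.

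**Figure D3:**
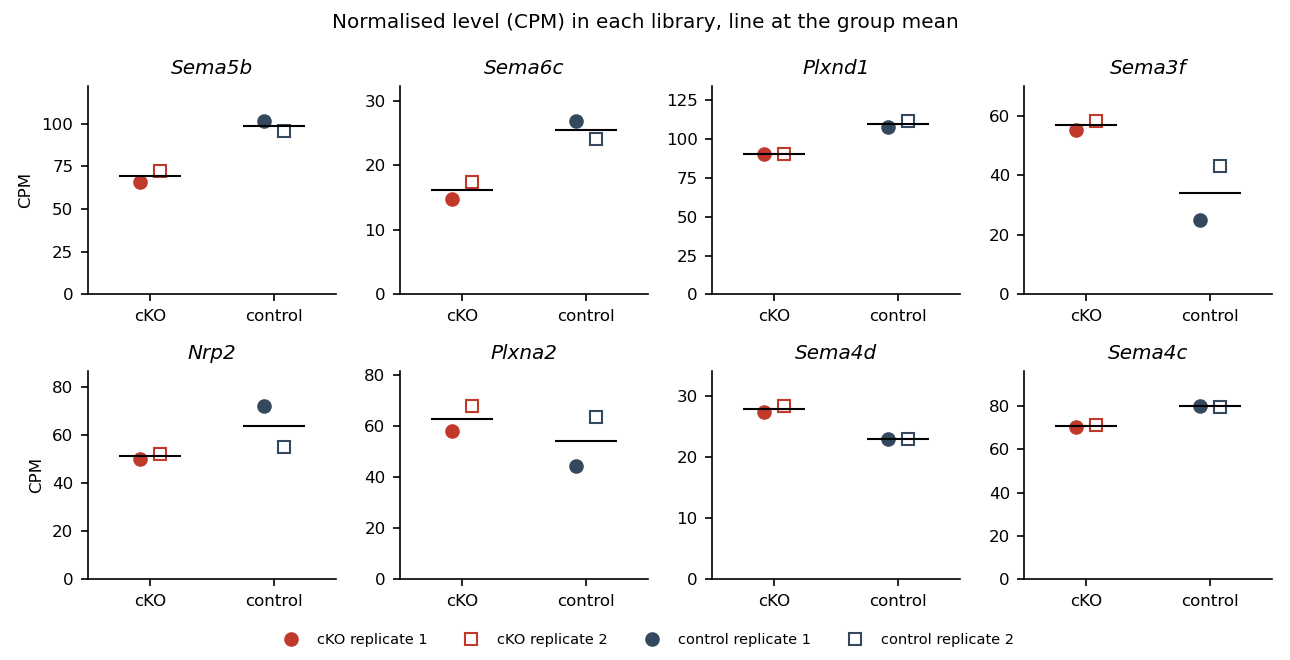
CPM of 8 genes in each library, cKO (red) left of control (dark blue), circles for replicate 1, open squares for replicate 2 and a line at the mean of each group. Replicates of Sema5b, Sema6c, Plxnd1, Sema4d and Sema4c lie close together, whereas Sema3f, Nrp2 and Plxna2 differ between control replicates 1 and 2.

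Plxnd1 (chromosome 6, 115954811 to 115995005), a receptor of Sema3e that is abundant in endothelium, was at 90.1 and 90.4 CPM in cKO replicates 1 and 2, against 108 and 112 CPM in control replicates 1 and 2. The cKO libraries were nearly equal, and both lay below both control libraries. The log2 fold change was −0.28 (SE 0.05, edgeR adjusted p = 0.0365), and it stayed between −0.31 and −0.26 under all alternatives run. No call was made when any 1 library was left out (adjusted p 0.141 without cKO replicate 1, 0.18 without cKO replicate 2, 0.0707 without control replicate 1, 0.0702 without control replicate 2) or with the replicate number as a block (0.071). The 15 markers of endothelium summed to 336 and 336 CPM in cKO replicates 1 and 2, against 396 and 381 CPM in control replicates 1 and 2, with a median log2 fold change of −0.26, 0 of 15 called and none at 0 in any library. Of these, Cdh5 had a value of −0.34 and Flt1 of 0.28, with both cKO libraries above both control libraries for Flt1. The part of the endothelial markers in the Plxnd1 value was not tested. Plxnc1, a receptor of Sema7a, was at 34.3 ± 1.7 CPM in cKO and 34.6 ± 4.9 CPM in control forebrain (SD, n = 2 each; log2 fold change −0.01, SE 0.11).

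The class A plexins, which transduce neuropilin-bound and class 6 ligands, had no call, and the groups overlapped for all 4. Plxna1 was at 245 and 252 CPM in cKO replicates 1 and 2, against 247 and 260 CPM in control replicates 1 and 2 (log2 fold change −0.03, SE 0.05, edgeR adjusted p = 0.834). Plxna3 was as close, with a log2 fold change of 0.0024 (SE 0.07). Plxna2 was at 57.9 and 68.0 CPM in cKO replicates 1 and 2, against 44.5 and 63.7 CPM in control replicates 1 and 2. Control replicate 1 was the low library, as for Sema3f. The log2 fold change of Plxna2 was 0.22 (SE 0.16, edgeR adjusted p = 0.546). Leaving out control replicate 2 gave 0.50 (adjusted p = 0.0332) for this gene, and leaving out control replicate 1 gave −0.016 (adjusted p = 0.97). Plxna4 was at 16.2 and 9.11 CPM in cKO replicates 1 and 2, against 10.7 and 9.77 CPM in control replicates 1 and 2, so only cKO replicate 1 was high; without it the log2 fold change of 0.30 (SE 0.26) became −0.17.

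The class B plexins, receptors of class 4 semaphorins, lay in opposite directions with no call. Plxnb2 was at 377 and 367 CPM in cKO replicates 1 and 2, against 341 and 360 CPM in control replicates 1 and 2 (log2 fold change 0.09, SE 0.05, edgeR adjusted p = 0.406). Plxnb1 was at 223 and 232 CPM in cKO replicates 1 and 2, against 244 and 249 CPM in control replicates 1 and 2 (log2 fold change −0.11, SE 0.05, edgeR adjusted p = 0.268). The groups did not overlap for either gene. Exons of Plxna1, Plxna4 and Plxnb1 share 970, 110 and 257 bases with opposite-strand transcripts, from which reads could not be separated. Summed over the 9 plexins, the level per length was 502 and 497 TPM in cKO replicates 1 and 2, against 503 and 527 TPM in control replicates 1 and 2. The 20 semaphorins summed to 277 and 276 TPM in cKO replicates 1 and 2, against 302 and 306 TPM in control replicates 1 and 2.

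**Figure D4:**
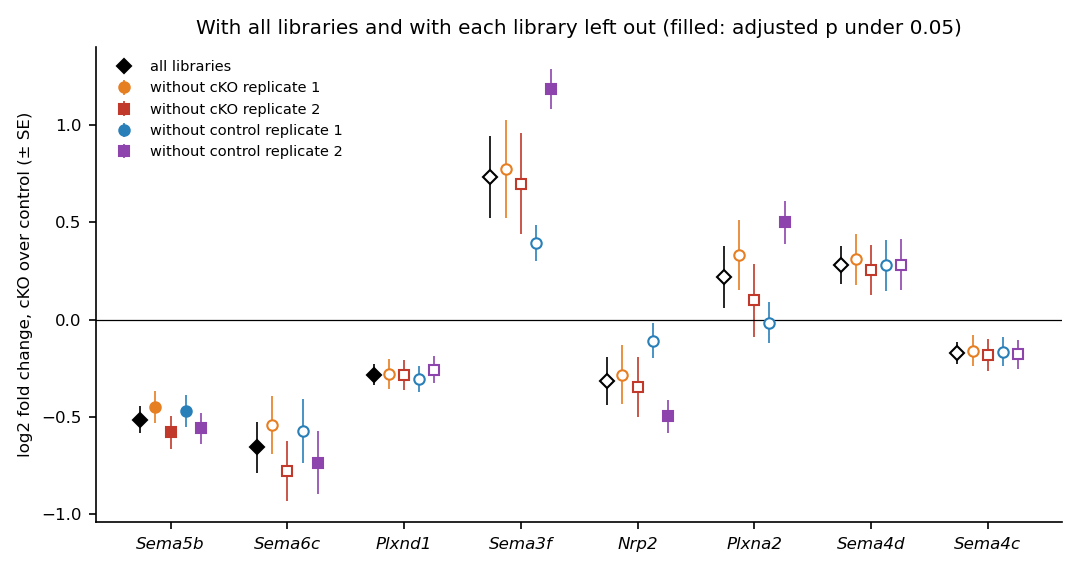
log2 fold change (cKO over control, ± SE) of 8 genes with all 4 libraries and with each library left out; filled symbols mark an adjusted p under 0.05. Sema5b is filled throughout, and Sema3f, Nrp2 and Plxna2 are filled only without control replicate 2.

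The libraries also differed in other markers. The 14 markers of new neurons summed to 665 and 691 CPM in cKO replicates 1 and 2, against 1150 and 954 CPM in control replicates 1 and 2, with 4 called lower, 0 higher, a median log2 fold change of −0.65 and none at 0 in any library. Mapt, Elavl3, Tubb3 and Elavl4 were the 4 called, while Rbfox3, with a value of 0.41 and no call, had both cKO libraries above both control libraries. Sema5b, Sema6c, Nrp2 and Sema4c followed the same order of libraries (control replicate 1, control replicate 2, cKO replicate 2, cKO replicate 1), as did 6.7% of all genes tested. The sum of the endothelial markers had this order too, but its cKO replicates 1 and 2 were all but tied, at 335.813 and 335.825 CPM. Lhx2, a forebrain progenitor gene called lower above, was also highest in control replicate 1, but lowest in cKO replicate 2. This gene alone does not give the order of forebrain progenitor markers as a set. The part of neuronal, endothelial and progenitor genes in the values of Sema5b, Sema6c, Nrp2 and Sema4c was not tested. The 6 ventral midline and hypothalamus markers had a higher sum in replicate 2 of each group. It was 11.6 and 63.2 CPM in cKO replicates 1 and 2, against 20.8 and 72.1 CPM in control replicates 1 and 2. Shh had the largest part in the cKO pair, at 2.47 and 40.6 CPM in replicates 1 and 2. Nkx2-1 had the largest part in the control pair, at 3.42 and 34.0 CPM in replicates 1 and 2, followed by Shh. Erythroid markers summed to 1895 and 1808 CPM in cKO replicates 1 and 2, against 2852 and 3071 CPM in control replicates 1 and 2, with 6 of 9 tested called lower and 4 of 13 at 0 (Hba-a1, Hba-a2, Hbb-bs and Hbb-bt). Macrophage markers summed to 40.9 and 34.6 CPM in cKO replicates 1 and 2, against 46.1 and 40.5 CPM in control replicates 1 and 2, with 0 of 9 called.

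Among genes that work with the family, those called were all lower in the cKO. Of 59 tested partners (co-receptors, shared ligands of neuropilins and intracellular effectors), 10 were lower and 0 higher, against 2.13% and 1.57% of all genes tested, with a median log2 fold change of −0.13. Without cKO replicate 2, 4 partners were lower. The partner list was chosen with earlier results of these data known, so its counts beside the shares of all genes are descriptive only. Nrcam, an immunoglobulin adhesion molecule that joins neuropilin complexes, gave the smallest p. It was at 12.1 and 12.4 CPM in cKO replicates 1 and 2, against 36.0 and 32.3 CPM in control replicates 1 and 2 (log2 fold change −1.48, SE 0.11, edgeR adjusted p = 0.00141). It was the only co-receptor called of 12 tested.

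Collapsin response mediator proteins, microtubule-associated effectors first found downstream of Sema3a, gave 3 of the 8 intracellular partners called. Dpysl4 was at 41.6 and 46.9 CPM in cKO replicates 1 and 2, against 88.5 and 82.8 CPM in control replicates 1 and 2 (log2 fold change −0.95, SE 0.08, edgeR adjusted p = 0.00185). Dpysl3, at 161 and 176 CPM in cKO replicates 1 and 2 against 231 and 235 CPM in control replicates 1 and 2, had a log2 fold change of −0.47 (edgeR adjusted p = 0.00703). Crmp1 was at 115 and 120 CPM in cKO replicates 1 and 2, against 176 and 148 CPM in control replicates 1 and 2 (−0.47, edgeR adjusted p = 0.028). The relatives Dpysl2 and Dpysl5 had values of −0.21 and −0.10 with no call. Pak1 and Pak3, p21-activated kinases that act between Rac and the actin cytoskeleton, were lower too. Pak1 was at 66.4 and 66.6 CPM in cKO replicates 1 and 2, against 99.0 and 96.9 CPM in control replicates 1 and 2 (log2 fold change −0.56, SE 0.06, edgeR adjusted p = 0.00375). Pak3 was at 41.6 and 35.6 CPM in cKO replicates 1 and 2, against 101 and 67.0 CPM in control replicates 1 and 2 (log2 fold change −1.12, SE 0.18, edgeR adjusted p = 0.0201). Cdk5r1, the activator of the kinase CDK5, was at 12.5 and 12.3 CPM in cKO replicates 1 and 2, against 25.8 and 21.7 CPM in control replicates 1 and 2 (log2 fold change −0.94, edgeR adjusted p = 0.0134). For each of the 6 effectors named here with a call, both cKO libraries were below both control libraries. These effectors were picked by their call, so the separation adds no support to it, and 24% of all genes tested separated this way. Several of these effectors are neuronal genes, and 4 of the 14 new-neuron markers given above were called lower; the part of those markers was not tested.

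Among the VEGF ligands that share neuropilins, Vegfc, a lymphatic and vascular growth factor that binds Nrp2, was at 9.16 and 6.45 CPM in cKO replicates 1 and 2, against 14.6 and 16.0 CPM in control replicates 1 and 2 (log2 fold change −0.97, SE 0.19, edgeR adjusted p = 0.0418). Vegfa, the main VEGF ligand of Nrp1, had no call (log2 fold change 0.11, SE 0.08, edgeR adjusted p = 0.534). Pgf, the other listed ligand, lay in the opposite direction to Vegfc with no call (log2 fold change 1.93, SE 0.44, edgeR adjusted p = 0.0624). It had few reads, with 29 and 44 counts in cKO replicates 1 and 2, against 9 and 10 counts in control replicates 1 and 2. Of the called partners, Nrcam, Dpysl4, Dpysl3 and Pak1 were called with every library left out in turn. Rnd3 (log2 fold change −0.30) and Micall1 (−0.57) were the remaining called partners. Rnd3 lost its call with each library left out (adjusted p 0.0548 without cKO replicate 1, 0.248 without cKO replicate 2, 0.128 without control replicate 1, 0.0573 without control replicate 2), with upper-quartile factors (0.0547) and under the replicate block (0.0715). Micall1 lost it without cKO replicate 1 (0.0838), cKO replicate 2 (0.201) or control replicate 2 (0.106) and under the replicate block (0.0916). Crmp1 lost its call without cKO replicate 1 (adjusted p = 0.0939) or cKO replicate 2 (0.0894), and Pak3 (0.0939) and Cdk5r1 (0.0586) without cKO replicate 2. Vegfc lost it without control replicate 1 (log2 fold change −1.04), control replicate 2 (−0.90) or cKO replicate 2 (−0.74). Under the replicate block, Crmp1 and Vegfc (edgeR adjusted p = 0.0762) also lost their calls.

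**Figure D5:**
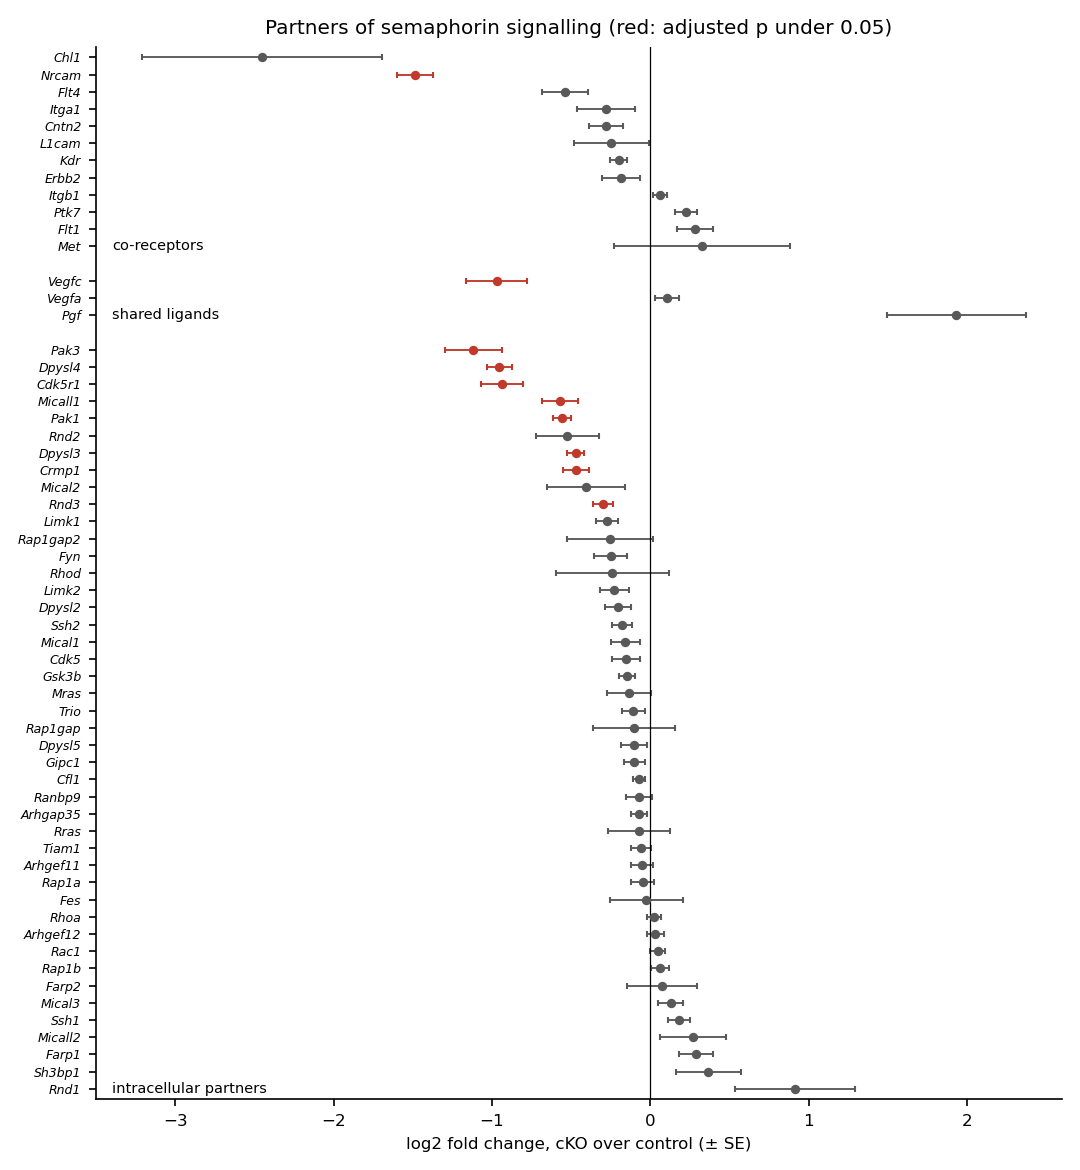
log2 fold change (cKO over control, ± SE) of 59 tested partner genes by class, with calls at an adjusted p under 0.05 in red. All 10 called genes lie below 0.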

How the data were processed

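RNA-seq measured polyA RNA of E10.5 mouse forebrain in 4 libraries. The raw counts per gene (24982 genes) were made by the authors with featureCounts 2.0.1 from paired-end reads over exons of a RefSeq annotation of mm10 (GRCm38), per the file headers, with no strand option set. HISAT2 and DESeq2 are named in the submitters' processing notes; no version of either is given in those notes. The authors also deposited log2 fold changes with p-values, a Wald statistic (a score, not used) and normalized counts (a signal, also deposited, not used); these are quoted only where that table is named.

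Titles gave the groups, and no column of per-sample values was left without a sample. Genes passing filterByExpr (minimum count 10; 14235 genes) were fitted with edgeR 4.0.16 (R 4.3.3; TMM, glmQLFit, glmQLFTest, no covariate), with Benjamini-Hochberg adjustment over all of them. A member that passed the filter through its high group only had to differ. Each of the 30 members of 31 that passed had 18 counts or more in every library, so no member entered that way. The SE was the fold change over the root of F. Replicates were checked as distinct libraries (chi-square per degree of freedom 4.52 for the cKO pair and 5.37 for the control pair). The precision is set by total counts between 16581252 and 17096522 and by a common biological coefficient of variation of 0.0785. TPM used union exon lengths from GENCODE M21, found for 24447 genes; gene coordinates are from the same annotation. Promoter windows are from RefSeq, GRCm38.p6.

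Members called, and per role the most abundant member and that with the smallest p, were given library by library; of the partners, up to 8 called ones were named by p. Sema3a, Sema3d, Sema3e, Sema4d, Sema5a, Sema7a, Nrp1, Plxna4, Dpysl2, Dpysl5, Vegfa, Pgf, Rnd3 and Micall1 were added after their values were seen. Of the tissue markers only Six3 and Lhx2 are reported here. The members and lists were chosen with earlier results of these data known. Simulated counts were used to test the edgeR step. Alternatives were DESeq2 1.42.0 size factors and its Wald test, upper-quartile factors, a fit with no filter on counts, a minimum mean of 5 CPM, limma-voom (limma 3.58.1), the replicate number as a block, and each library left out; a fit with a lone library assumes that it varies like the other group. Plots used matplotlib 3.10.9.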

Additional observations from a re-analysis of the deposited data

How the results depend on the processing

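Under the DESeq2 size factors, upper-quartile factors, both filters, the DESeq2 Wald test and limma-voom, 3 members were called lower and 0 higher, as in the analysis of all libraries. With the replicate number as a block 1 member (Sema5b) of 30 and 6 partners of 59 were called, all lower. In that fit 2.44% of all genes tested were called, 348 of 14235, with 211 of them lower. The labels do not say that a number marks a litter or day, and over genes the deviations of same-numbered libraries from their group means had a correlation of −0.049, so this pairing rests on the number alone. Leaving out 1 library gave 1 to 5 members called (1 to 3 lower and 0 to 2 higher) and 4 to 11 partners called (4 to 9 lower and 0 to 2 higher); the 5 members were found without control replicate 2, and the cause was not tested. Without cKO replicate 2, 1.44% of all genes were called, and without control replicate 2, 5.25%. No called member or called partner changed direction. Among uncalled members the direction of Plxnc1 turned with upper-quartile factors (0.0044, against −0.010). It also turned when a library was left out for Nrp1 (−0.41 to 0.058), Plxna1 (−0.062 to 0.0093), Plxna2 (−0.016 to 0.50), Plxna3 (−0.070 to 0.080), Plxna4 (−0.17 to 0.66), Plxnc1 (−0.15 to 0.14), Sema3a (−0.88 to 0.13), Sema3c (−0.30 to 0.0076), Sema4a (−0.053 to 0.48), Sema4b (−0.16 to 0.054), Sema4f (−0.10 to 0.13), Sema4g (−0.20 to 0.038) and Sema6b (−0.13 to 0.063). With 2 libraries a group and levels under 10 CPM for 9 members, differences of the size seen for Sema3d, Sema3e and Sema3g were not called. Replicates also differed, with 29 and 73 counts of Sema3d in control replicates 1 and 2. Sema3g had 77 and 128 counts in cKO replicates 1 and 2. The part of depth in the missing calls was not tested. With a mean of at least 5 CPM required, 5 of the 30 members were not tested.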
